A study of Mus musculus with 9 samples.

Results

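Of the 21936 genes in the deposited table, 10 are described here: 5 genes of the 3β-hydroxysteroid dehydrogenase family (Hsd3b1, Hsd3b2, Hsd3b3, Hsd3b5 and Hsd3b6) and 5 other enzymes that act on steroids in liver (Akr1c6, Cyp17a1, Srd5a1, Hsd11b1 and Hsd17b6). They were chosen by name with their values in these same livers known, so their levels and group differences are a description and carry no test. The livers were those of 9 male C57BL/6 wild type mice, 3 per group, bought at 9 weeks of age and fed for 4 weeks, with 1 library per mouse from the right lobe. MCS mice ate a diet with methionine and choline and were given the vehicle, 0.5% CMC-Na. MCD mice ate the diet without methionine and choline and were given the same vehicle. HGPP mice ate the deficient diet and were given Gynostemma pentaphyllum polysaccharides (GPP) in that vehicle at 300 mg/kg. All HGPP mice thus carried the deficient diet as well, and no group received GPP on the sufficient diet.

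Enzymes of the 3β-hydroxysteroid dehydrogenase family turn the early steroids made from cholesterol into ketosteroids, a step that every adrenal and gonadal steroid hormone passes through. In the mouse the family is a cluster of closely similar genes that differ in tissue: Hsd3b1 serves the adrenal and gonads, Hsd3b6 the adrenal and placenta, Hsd3b2 and Hsd3b3 liver and kidney, and Hsd3b5 encodes a ketosteroid reductase of male liver. Liver is not a steroid gland. Its enzymes reactivate, convert and clear steroids that arrive with the blood, and in rodents several of them differ between males and females under the pattern of growth hormone release.

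All 5 Hsd3b genes lie on the minus strand of chromosome 3 (GRCm38, GENCODE vM21 gene bounds). In order along the chromosome they are Hsd3b5 (chr3:98618634-98630252), Hsd3b2 (chr3:98709255-98724543), Hsd3b3 (chr3:98741523-98763127), Hsd3b6 (chr3:98805504-98814443) and Hsd3b1 (chr3:98852194-98859794). Akr1c6 (chr13:4434306-4457877) and Srd5a1 (chr13:69573449-69611442) lie on chromosome 13, Cyp17a1 (chr19:46667165-46673172) on chromosome 19, Hsd11b1 (chr1:193221634-193264075) on chromosome 1 and Hsd17b6 (chr10:127990936-128007611) on chromosome 10. The coding sequences of Hsd3b2 and Hsd3b3 were identical at 1067 of 1122 aligned bases (95.1%), and that of Hsd3b6 matched them at 94.4% and 94.5%. Hsd3b5 stood further off, with 81.9% identity to Hsd3b2 and 82.3% to Hsd3b3.

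Likeness of this degree bears on the values, since a read that fits several genes may be dropped or counted for the wrong gene. Of all stretches of 50 bases in Hsd3b2 transcripts 25.1% also occur in another gene, and of those of 100 bases 6.90% do. The shares were 6.69% and 3.31% for Hsd3b3, 21.2% and 7.79% for Hsd3b5, 15.6% and 3.11% for Hsd3b6, and 4.86% and 0% for Hsd3b1. The sources used here do not give how reads with several matches were counted, so the levels of the Hsd3b genes relative to each other are uncertain. Srd5a1 shares 16.4% of its exon bases with Gm17108 on the same strand, and 12.1% of 50-base stretches of Hsd17b6 occur in the retinol dehydrogenase genes such as Rdh1, Rdh16f1 and Rdh19. For Akr1c6 the share was 1.38%, and for Cyp17a1 and Hsd11b1 it was 0%. On the opposite strand exons of Zfp697, which was listed at 0.102 to 0.525 FPKM, cover 2.68% of the exon bases of Hsd3b2 and 4.39% of those of Hsd3b3.

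The windows around the RefSeq start sites of Hsd3b2, Hsd3b3 and Hsd3b5, the 3 family members that were read in every group, are shown because these genes behaved differently in the livers below. Each runs from 250 bases before the start to 50 after it (GRCm38.p6, minus strand, 5′ to 3′), and capitals mark the longest run of bases that a gene shares with each of the other two. The windows are chr3:98724494-98724793 for Hsd3b2, chr3:98763079-98763378 for Hsd3b3 and chr3:98645485-98645784 for Hsd3b5.
Hsd3b2: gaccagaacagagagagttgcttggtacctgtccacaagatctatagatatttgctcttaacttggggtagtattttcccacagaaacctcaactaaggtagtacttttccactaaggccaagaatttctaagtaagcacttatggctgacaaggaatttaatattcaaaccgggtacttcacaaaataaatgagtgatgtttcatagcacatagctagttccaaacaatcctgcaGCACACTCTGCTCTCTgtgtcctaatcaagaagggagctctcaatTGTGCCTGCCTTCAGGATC
Hsd3b3: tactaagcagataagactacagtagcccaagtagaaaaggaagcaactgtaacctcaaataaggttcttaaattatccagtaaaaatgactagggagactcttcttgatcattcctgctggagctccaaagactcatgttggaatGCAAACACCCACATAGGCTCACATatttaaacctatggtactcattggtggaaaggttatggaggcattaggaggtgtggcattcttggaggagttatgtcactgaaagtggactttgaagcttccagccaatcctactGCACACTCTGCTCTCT
Hsd3b5: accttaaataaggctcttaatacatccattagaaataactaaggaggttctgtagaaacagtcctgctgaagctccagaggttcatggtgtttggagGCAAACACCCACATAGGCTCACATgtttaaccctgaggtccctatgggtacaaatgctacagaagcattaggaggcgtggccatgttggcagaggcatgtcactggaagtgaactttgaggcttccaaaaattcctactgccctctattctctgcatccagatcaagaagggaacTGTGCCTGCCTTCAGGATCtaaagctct
The longest common run was 24 bases between Hsd3b3 and Hsd3b5, 19 between Hsd3b2 and Hsd3b5 and 16 between Hsd3b2 and Hsd3b3. Aligned end to end, the windows of Hsd3b3 and Hsd3b5 were identical at 196 of 247 aligned bases (79.4%), those of Hsd3b2 and Hsd3b5 at 195 of 247 (78.9%) and those of Hsd3b2 and Hsd3b3 at 181 of 243 (74.5%), with 106, 106 and 114 bases in gaps. The RefSeq start of Hsd3b5 lies 15282 bases before the GENCODE start of the gene, while that of Hsd3b2 is the same base in both, so the Hsd3b5 window belongs to the more distant of 2 annotated starts.

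RefSeq windows were matched by symbol for 9 of the 10 genes, and Cyp17a1 had no entry. Hsd3b3 and Hsd17b6 had 2 windows each, and the first of Hsd3b3 is the one shown above. The RefSeq start of Hsd11b1 lies 21715 bases from the GENCODE start of the gene. All these windows were searched on both strands for 4 motifs. The TATA box was searched as TATAAA. The half-site of nuclear receptors was searched as AGGTCA. The site of the NR5A receptors was searched as CAAGGTCA, which contains that half-site. The STAT5 site was searched as TTCNNNGAA. None of the 3 windows above held any of them. Hsd3b1 held the letters of a STAT5 site from base -122, and Akr1c6 held TATAAA from base -164, both counted from the RefSeq start. Over all 32851 windows of this length 13.6% held the TATA box, 16.3% the half-site, 1.56% the NR5A site and 8.30% the STAT5 site. A match or its lack in these letters says nothing of a factor's binding.

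The values are FPKM (fragments scaled by gene length and by library depth), as deposited. Depth recovered from them was 11492657 to 18902845 fragments per library. Differences are given on the log2(FPKM + 0.1) scale, which understates those of low genes, and are set beside the median of the 13817 genes tested with limma, those with at least 0.1 FPKM in 3 or more libraries. That median was 0.40 for MCD against MCS, 0.33 for HGPP against MCS and -0.07 for HGPP against MCD, so a gene at 0 in the first 2 comparisons lay below most genes. After division by median-of-ratios size factors the medians were 0.02, 0.01 and -0.01. The 3 comparisons share groups: MCS and MCD values each enter 2 of them, and so do HGPP values.

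Of the 10 genes, 8 passed the filter and were tested. Hsd3b6 had 0 reads in all 9 libraries, which at this depth allows a level of up to 0.0881 to 0.145 FPKM per library (3 reads, counting error only). Hsd3b1 had 6 reads in HGPP replicate 1 (0.242 FPKM), 1 in MCD replicate 3 (0.0411 FPKM) and 0 in the other libraries. The gland isoforms were thus at or near the limit of detection. Hsd3b4 and Hsd3b7, the other family members in the table, were listed at 0 in all libraries. Hsd3b7 acts in bile acid synthesis, and 62.0% of its exon bases lie within exons of Gm49388 on the same strand, itself listed at 0.

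Hsd3b2 was the family member that set HGPP livers apart. It was read at 8.48, 8.61 and 5.21 FPKM in MCS, at 10.6, 8.72 and 11.8 FPKM in MCD and at 2.57, 2.22 and 2.38 FPKM in HGPP. All 3 HGPP livers lay below all 6 others, and the highest HGPP value was under the lowest MCS value. MCS livers averaged 7.43 ± 1.93, MCD livers 10.4 ± 1.56 and HGPP livers 2.39 ± 0.179 FPKM (SD, n = 3 each), from 288 to 592 reads per library without GPP and 120 to 138 with it. On the log2 scale HGPP was lower than MCD by -2.07 (SE 0.22) and lower than MCS by -1.56 (SE 0.22). MCD lay above MCS by 0.50 (SE 0.25), with no overlap between livers, but this is close to the median shift of all genes: after median-of-ratios scaling the difference was 0.09 (SE 0.29) and the livers overlapped. In whole tissue, fewer cells of a type and less RNA per cell cannot be told apart, here and for each gene below.

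Hsd3b5, the male liver ketosteroid reductase, was low in both groups on the deficient diet. Its levels were 4.30, 13.5 and 2.42 FPKM in MCS, 1.12, 0 and 0.394 FPKM in MCD and 0.435, 0.353 and 0.329 FPKM in HGPP. The MCS livers spread over a wide range, yet the lowest of them lay above all 6 livers on the deficient diet. Behind these values were 56 to 327 reads in MCS, 20, 0 and 8 reads in MCD and 9, 8 and 8 reads in HGPP. The count of 0 in MCD replicate 2 allows up to 0.116 FPKM. The difference was -3.76 (SE 0.84) for MCD against MCS and -3.50 (SE 0.52) for HGPP against MCS, and it was -2.16 and -2.22 with a pseudocount of 1. HGPP and MCD livers overlapped, with a difference of 0.26 (SE 0.75) that was -0.73 without MCD replicate 2, 1.08 without MCD replicate 1 and -0.07 with a pseudocount of 1, so that it has no settled direction.

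Hsd3b3, the other liver and kidney isoform, had closer group means as deposited. It was read at 7.96, 12.3 and 7.76 FPKM in MCS, at 5.93, 9.73 and 6.54 FPKM in MCD and at 6.71, 4.51 and 6.65 FPKM in HGPP. All HGPP livers lay below all MCS livers by a small margin, and MCD overlapped with both. The difference was -0.63 (SE 0.23) for HGPP against MCS, -0.33 (SE 0.27) for MCD against MCS and -0.30 (SE 0.26) for HGPP against MCD. With median-of-ratios scaling MCD livers also lay wholly below MCS, by -0.75 (SE 0.24), and HGPP against MCS was -0.98 (SE 0.25).

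**Figure D1:**
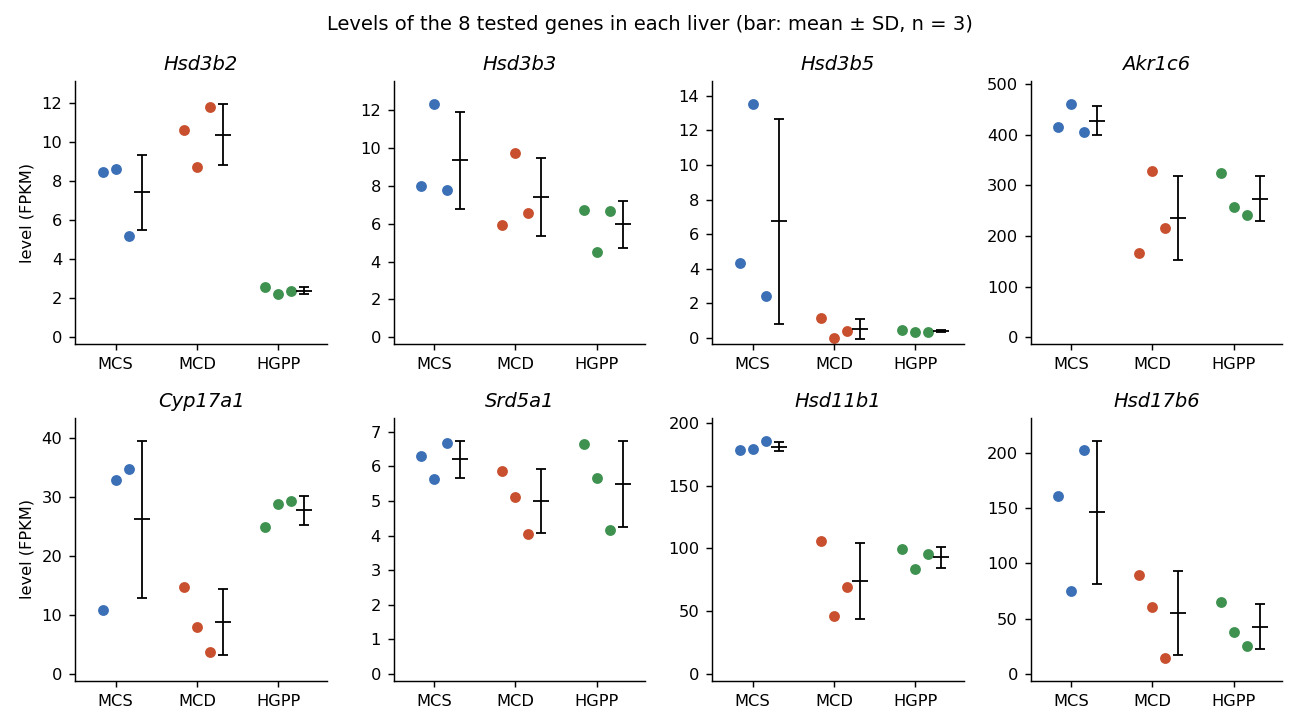
Levels in FPKM (vertical axes, linear) of the 8 tested genes, 1 point per liver by group (horizontal axes), with the mean ± SD of 3 livers as a bar beside the points. Hsd3b2 was between 2.22 and 2.57 in HGPP and at or above 5.21 elsewhere, Hsd3b5 was at or under 1.12 in both groups on the deficient diet, and Cyp17a1 was at or under 14.7 in all MCD livers and at or above 24.9 in all HGPP livers.

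Because the isoforms differed in which group was low, the makeup of the family as deposited changed between groups. The part of reads that fit several of these genes in it was not tested. Hsd3b2 exceeded Hsd3b3 by a factor of 1.79 and 1.80 in MCD replicates 1 and 3 and stood at 0.896 of it in MCD replicate 2. The same ratio was 1.07, 0.701 and 0.671 in MCS and 0.384, 0.491 and 0.358 in HGPP. The 3 HGPP ratios lay below all 6 others, so Hsd3b2 was lower in HGPP relative to its neighbour within the same library as well. Hsd3b5 made up 20.8%, 39.3% and 15.7% of the summed family level in MCS, 6.35%, 0% and 2.10% in MCD and 4.37%, 4.98% and 3.52% in HGPP. Hsd3b3 accounted for 63.7% to 71.0% of the sum in HGPP, against 33.5% to 52.7% in the other groups. The sum itself was 15.4 to 34.4 FPKM in MCS, 17.7 to 18.8 FPKM in MCD and 7.08 to 9.96 FPKM in HGPP.

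**Figure D2:**
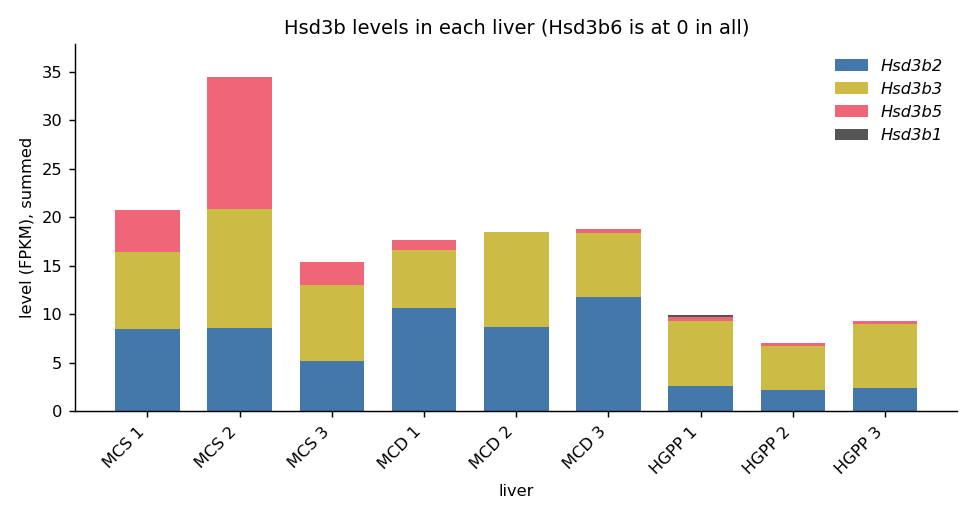
Summed level in FPKM (vertical axis) of the Hsd3b genes in each of the 9 livers (horizontal axis), split by gene as deposited. How reads that fit several genes were counted is not given. The 3 HGPP bars, at 7.08 to 9.96, are the lowest, with a small Hsd3b2 part, while the Hsd3b5 part is large only in the MCS livers.

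Cyp17a1, the hydroxylase and lyase that leads from progestins to androgens, had the opposite pattern to Hsd3b2 within the deficient diet. It was read at 10.9, 32.9 and 34.7 FPKM in MCS, at 14.7, 8.02 and 3.72 FPKM in MCD and at 24.9, 28.8 and 29.3 FPKM in HGPP. All HGPP livers lay above all MCD livers, and MCS replicate 1 fell in the MCD range while the other MCS livers lay above HGPP. The difference was 1.85 (SE 0.41) for HGPP against MCD and -1.59 (SE 0.52) for MCD against MCS. With median-of-ratios scaling MCD lay wholly below MCS, by -2.01 (SE 0.52). For HGPP against MCS the difference was 0.25 (SE 0.38), which turned to -0.10 with that scaling and to -0.29 without MCS replicate 1. The ratio of Cyp17a1 to Hsd3b2 was 9.68, 13.0 and 12.3 in HGPP, 1.38, 0.920 and 0.315 in MCD and 1.28, 3.82 and 6.67 in MCS, and the HGPP ratios lay above all others.

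Akr1c6, an aldo-keto reductase that acts as a 17β-hydroxysteroid dehydrogenase, was the most abundant of the 10 genes in every group. It was read at 416, 460 and 406 FPKM in MCS, at 166, 328 and 215 FPKM in MCD and at 324, 257 and 241 FPKM in HGPP. All 6 livers on the deficient diet lay below all MCS livers, and those of MCD and HGPP overlapped. The difference was -0.91 (SE 0.26) for MCD and -0.65 (SE 0.16) for HGPP against MCS, and 0.26 (SE 0.28) for HGPP against MCD.

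Hsd17b6, which oxidises androgen metabolites of the androstanediol type, was read at 161, 75.4 and 202 FPKM in MCS, at 89.4, 61.0 and 14.5 FPKM in MCD and at 64.9, 37.7 and 25.7 FPKM in HGPP. MCS and HGPP livers did not overlap, whereas MCD replicate 1 lay above MCS replicate 2. The difference from MCS was -1.65 (SE 0.59) for MCD and -1.76 (SE 0.40) for HGPP, and that between HGPP and MCD was -0.11 (SE 0.60). Without MCD replicate 3 the difference of MCD from MCS was -0.87. That between HGPP and MCD was then -0.89, and 0.42 without MCD replicate 1, so that it has no settled direction. With median-of-ratios scaling all MCD livers lay below all MCS livers. Srd5a1, a 5α-reductase that makes dihydrotestosterone, was close to even: 6.29, 5.63 and 6.68 FPKM in MCS, 5.86, 5.12 and 4.04 FPKM in MCD and 6.64, 5.66 and 4.16 FPKM in HGPP. The groups overlapped in all 3 comparisons, with differences of -0.32 (SE 0.23), -0.20 (SE 0.20) and 0.12 (SE 0.25). Relative to the median of all genes it was lower than in MCS by -0.72 in MCD and by -0.53 in HGPP, and with median-of-ratios scaling the livers no longer overlapped with MCS.

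Hsd11b1, which turns inactive glucocorticoid back into its active form, had the tightest MCS values of the set. It was read at 178, 179 and 186 FPKM in MCS, at 106, 46.4 and 69.1 FPKM in MCD and at 99.4, 83.4 and 95.9 FPKM in HGPP. All livers on the deficient diet lay below all MCS livers, and the HGPP values fell inside the MCD range. The difference was -1.37 (SE 0.28) for MCD against MCS, -0.97 (SE 0.13) for HGPP against MCS and 0.41 (SE 0.29) for HGPP against MCD. H6pd, which supplies its cofactor inside the endoplasmic reticulum, averaged 74.5 ± 6.73 FPKM in the MCS livers, 53.1 ± 8.91 FPKM in those of MCD and 71.1 ± 13.8 FPKM in those of HGPP (SD, n = 3 each). It did not pass the test in MCD against MCS as deposited, and it did with median-of-ratios scaling (limma, adjusted p = 0.0134).

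**Figure D3:**
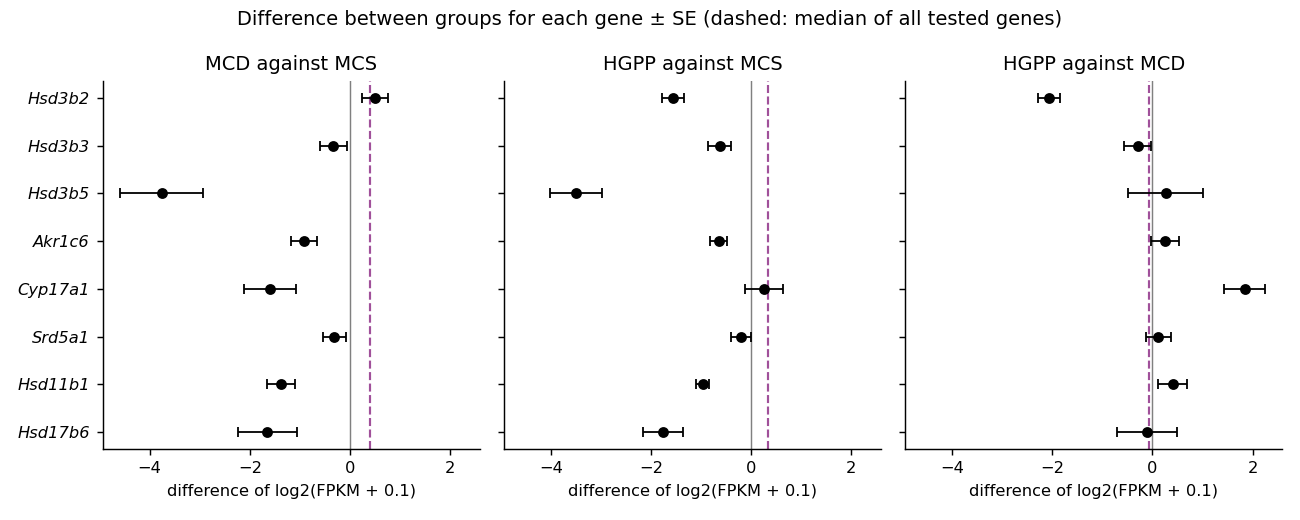
Difference between groups in log2(FPKM + 0.1) (horizontal axes) with its standard error for each of the 8 tested genes (vertical axis), 1 panel per comparison, with 3 livers per group. The dashed line is the median of all tested genes, at 0.40, 0.33 and -0.07; Hsd3b2 lies far below it at -1.56 and -2.07 in the HGPP panels, and Cyp17a1 above it at 1.85 against MCD.

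Ordered by mean level per gene length, Akr1c6 and Hsd11b1 led in all 3 groups, followed by Hsd17b6. The ranges of neighbours overlapped between Hsd11b1 and Hsd17b6 in MCS and MCD, and in MCS also from Cyp17a1 through Hsd3b3, Hsd3b2 and Hsd3b5 to Srd5a1. In MCD they overlapped from Hsd3b2 through Cyp17a1 to Hsd3b3 as well, and in HGPP between Hsd17b6 and Cyp17a1 and between Hsd3b3 and Srd5a1. Those parts of the order are not settled. Among the genes tested, Akr1c6 ranked 104th from the highest in MCS, 185th in MCD and 166th in HGPP. Of the genes tested, 71.7% lay below Hsd3b5 in MCS, 15.1% in MCD and 15.2% in HGPP. For Hsd3b2 the shares were 73.5%, 75.8% and 44.2%.

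At limma's adjusted p of 0.05, 3 of the 8 tested genes were called lower in MCD than in MCS (Hsd3b5, Akr1c6 and Hsd11b1), where 2.55% of all genes were called lower. None was called higher, where 19.6% of all genes were, and none was higher at an unadjusted p under 0.05 or with limma voom. In HGPP against MCS 5 were called lower (Hsd3b2, Hsd3b5, Akr1c6, Hsd11b1 and Hsd17b6), beside 2.48% of all genes, and none higher, beside 16.4%, again with none at an unadjusted p under 0.05 or with voom. In HGPP against MCD only Hsd3b2 was called lower, beside 0.0217% of all genes, and none higher, beside 0% of all genes. At an unadjusted p under 0.05 Cyp17a1 was higher, where 552 of all genes were, and voom called none higher. The study applied an unadjusted p under 0.05 and a difference beyond 1 on the log2 scale to a DESeq test of read counts. With those thresholds on the limma fit used here, Cyp17a1 was called higher, beside 0.919% of all genes, and Hsd3b2 lower, beside 5.17%. With median-of-ratios scaling 4 of the 8 were called lower in MCD and 6 in HGPP against MCS, where 1019 and 672 of all genes were. That scaling added Cyp17a1 in MCD and Hsd3b3 in HGPP. Nothing is read from these counts, since the genes were selected on these values.

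Single libraries decided part of these calls. That of Hsd3b2 in HGPP against MCD held without MCD replicate 1 or 2 and was lost without any HGPP replicate or without MCD replicate 3, with differences between -2.19 and -1.97. Hsd3b5 and Hsd11b1 stayed past the threshold against MCS in all 6 fits of each comparison that left out 1 library, and so did Hsd3b2 in HGPP against MCS. Akr1c6 stayed past it in 1 of 6 in each comparison with MCS, without MCD replicate 2 and without HGPP replicate 1. Hsd17b6 in HGPP against MCS was lost without HGPP replicate 2 or 3 or without MCS replicate 3, with differences of -2.18 to -1.44 over the 6 fits.

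Livers that do not overlap were also counted, without a threshold. In MCD against MCS 3 of the 8 genes lay wholly lower and 1 wholly higher, where 5.08% and 38.1% of all genes did. In HGPP against MCS 6 lay wholly lower and none higher, where 4.87% and 36.7% of all genes did. In HGPP against MCD 1 lay lower and 1 higher, where 11.3% and 5.83% of all genes did. The median difference of the 8 genes was -1.14, -0.81 and 0.19 in the 3 comparisons, beside 0.40, 0.33 and -0.07 for all genes.

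The genes were compared with the rest of steroid metabolism, taken from lists of 57 further genes, of which 53 were in the table and 41 were tested. In MCD against MCS 10 of the 41 fell and 3 rose, beside 2.55% and 19.6% of all genes. With median-of-ratios scaling 17 fell and 1 rose, where 1019 and 1231 of all 13817 genes did. In HGPP against MCS 8 fell and 1 rose, beside 2.48% and 16.4% of all genes. With that scaling 11 fell and 1 rose, where 672 and 704 of all genes did. These shares of all genes also stand beside the counts of the gene lists below. The 13 calls in MCD went to 4 without MCD replicate 3, 5 without MCS replicate 1, 8 without MCS replicate 2 and 3 without MCS replicate 3, and the 9 in HGPP to 3 without HGPP replicate 2, 5 without HGPP replicate 3 and 3 without MCS replicate 3. With the filter on low values removed, 4 were called in each. In HGPP against MCD none was called by limma or voom. At an unadjusted p under 0.05 4 were higher and 2 lower, where 552 and 1339 of all genes were. The median difference of the 41 was -0.35, -0.12 and 0.18 in the 3 comparisons, beside 0.40, 0.33 and -0.07 for all genes.

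Relatives of Akr1c6 were among those that fell. Of 8 further aldo-keto reductases of steroids, 5 fell and 1 rose in MCD, and 3 fell and 1 rose in HGPP. Akr1c14, the 3α-hydroxysteroid dehydrogenase of liver, fell from 94.3 ± 16.5 FPKM in MCS to 52.2 ± 11.9 in MCD (limma, difference -0.86, SE 0.23, adjusted p = 0.0243) and 45.7 ± 15.4 in HGPP (limma, difference -1.09, SE 0.24, adjusted p = 0.0182; SD, n = 3 each). Akr1c20, which shares 50-base stretches with Akr1c6, fell from 64.7 ± 8.90 to 37.0 ± 4.51 FPKM in MCD (limma, adjusted p = 0.0201). The one that rose, Akr1c18, which inactivates progesterone, was named after its values were seen: it averaged 0.173 ± 0.0889 FPKM on the sufficient diet, 1.56 ± 1.02 FPKM in MCD livers and 1.44 ± 0.761 FPKM in HGPP livers (limma, adjusted p = 0.0141 and 0.00514 against MCS). The call of Akr1c14 in MCD held in 1 of 6 fits with a library left out, without MCD replicate 1, and in HGPP in 3 of 6, being lost without HGPP replicate 2 or 3 or without MCS replicate 3. Those of Akr1c20 and Akr1c18 in MCD held in 3 of 6 each, being lost without MCS replicate 3 in both cases, without MCD replicate 3 or MCS replicate 2 for Akr1c20 and without MCD replicate 2 or MCS replicate 1 for Akr1c18.

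Genes of the other roles were called too. Of 9 further genes listed with the 17β-hydroxysteroid dehydrogenases, 1 fell in MCD and 2 in HGPP. They were Rdh16f2 and, named after its values were seen, Rdh16, both retinol dehydrogenases by name. No Hsd17b gene of this list was called as deposited. Rdh16f2 was among both, with averages of 209.9 ± 39.5 FPKM for MCS, 117 ± 42.6 FPKM for MCD and 132 ± 16.8 FPKM for HGPP (limma, adjusted p = 0.0459 and 0.0328), and its calls held only without MCD replicate 1 and without MCS replicate 1 among the fits that left out a library. Among 8 genes of steroid conjugation 3 fell and 1 rose in MCD and 2 fell in HGPP, led by Sult2a8, a liver sulfotransferase, from 113 ± 48.9 to 22.4 ± 12.0 and 20.6 ± 4.87 FPKM (limma, adjusted p = 0.00426 and 0.0017). Of 5 electron donors of steroid P450s 1 fell and 1 rose in MCD. As deposited, none was called in HGPP by limma, by voom or at an unadjusted p under 0.05. With median-of-ratios scaling 2 fell in each comparison with MCS, Cyb5b and Fdx1 (limma, adjusted p = 0.0443 and 0.0403 in HGPP). In MCD as deposited Cyb5b fell from 77.5 ± 15.9 to 35.4 ± 5.96 FPKM (limma, adjusted p = 0.00773). Fdxr, the reductase of the mitochondrial chain, was named after its values were seen: it rose from 11.1 ± 3.76 to 28.3 ± 10.2 FPKM (limma, adjusted p = 0.0203), a call lost with median-of-ratios scaling and without MCD replicate 3 or MCS replicate 1 or 3. Por, which passes electrons to Cyp17a1, was at 235 ± 79.1, 198 ± 56.6 and 249 ± 39.5 FPKM in MCS, MCD and HGPP and passed no test. Serpina6, the carrier of corticosteroids in blood, was at 236 ± 39.4 FPKM in MCS and 109 ± 21.1 in HGPP (limma, difference -1.11, adjusted p = 0.00677), the only one of 5 receptors and carriers called, and in MCD, at 165 ± 25.5 FPKM, it was called only with median-of-ratios scaling (limma, adjusted p = 0.113 as deposited and 0.0394 with that scaling).

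Genes that mark adrenal or gonad were low in all groups. Of 9 such genes in the table Nr5a1 and Cyp19a1 were at 0 in all libraries, and Cyp11a1, the first enzyme of steroid synthesis, was at or under 0.0249 FPKM. Their summed level was 0.894 to 1.72 FPKM in MCS, 1.46 to 1.96 in MCD and 0.906 to 2.55 in HGPP, most of it Star and Hsd17b1.

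Since Hsd3b5 belongs to the genes that male liver expresses above female liver, it was set beside others of that kind. Of 15 further male-predominant genes tested, 9 fell in MCD and 8 fell in HGPP against MCS, beside 2.55% and 2.48% of all genes. Mup20 alone rose, in HGPP, a call that median-of-ratios scaling removed. Mup21, of the family of major urinary proteins, whose near-identical copies make its level uncertain, averaged 169 ± 41.2 FPKM for MCS, 55.5 ± 33.4 FPKM for MCD and 73.8 ± 16.1 FPKM for HGPP (limma, adjusted p = 0.0237 and 0.00945), and its call in MCD was lost without any of the 3 MCS replicates. Cyp2d9, a steroid hydroxylase of male liver, fell from 209 ± 27.8 to 102 ± 31.8 and 134 ± 31.6 FPKM (limma, adjusted p = 0.0172 and 0.0434). Its call in MCD was lost without MCS replicate 1, and that in HGPP held only without HGPP replicate 3 among the 6 fits that left out a library. The 12 sex-biased genes called in HGPP against MCS went to 7 without HGPP replicate 2. Of 11 female-predominant genes 2 rose and 1 fell in each comparison with MCS, where 19.6% and 16.4% of all genes rose. Cyp2a4, also a steroid hydroxylase, averaged 4.42 ± 2.21 FPKM for MCS, 936 ± 519 FPKM for MCD and 957 ± 411 FPKM for HGPP (limma, adjusted p = 0.000256 and 0.000127). Stretches that Cyp2a4 shares with other genes were not counted, so the part of shared reads in its level was not tested. In HGPP against MCD none of the 26 was called by limma or voom. At an unadjusted p under 0.05 3 male-predominant genes were higher and 1 female-predominant gene was lower, where 552 and 1339 of all 13817 genes were.

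Hao2, the female-predominant gene that fell, was singled out after its values were seen because it lies next to the Hsd3b cluster. It averaged 1.29 ± 0.640 FPKM for MCS, 0.203 ± 0.221 FPKM for MCD and 0.299 ± 0.0432 FPKM for HGPP (limma, adjusted p = 0.0217 and 0.0215 against MCS), and these calls held in 3 and 1 of the 6 fits with a library left out, being lost without MCD replicate 3, without MCS replicate 2 or 3 and without any HGPP replicate. Of 11 genes of growth hormone signalling and of its repressors, Ghr, the receptor, and Igfals fell in both comparisons with MCS. Igfals, which encodes a subunit of the circulating IGF complex, averaged 41.8 ± 3.28 FPKM for MCS, 19.2 ± 4.04 FPKM for MCD and 17.9 ± 4.09 FPKM for HGPP (limma, adjusted p = 0.00628 and 0.00384).

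**Figure D4:**
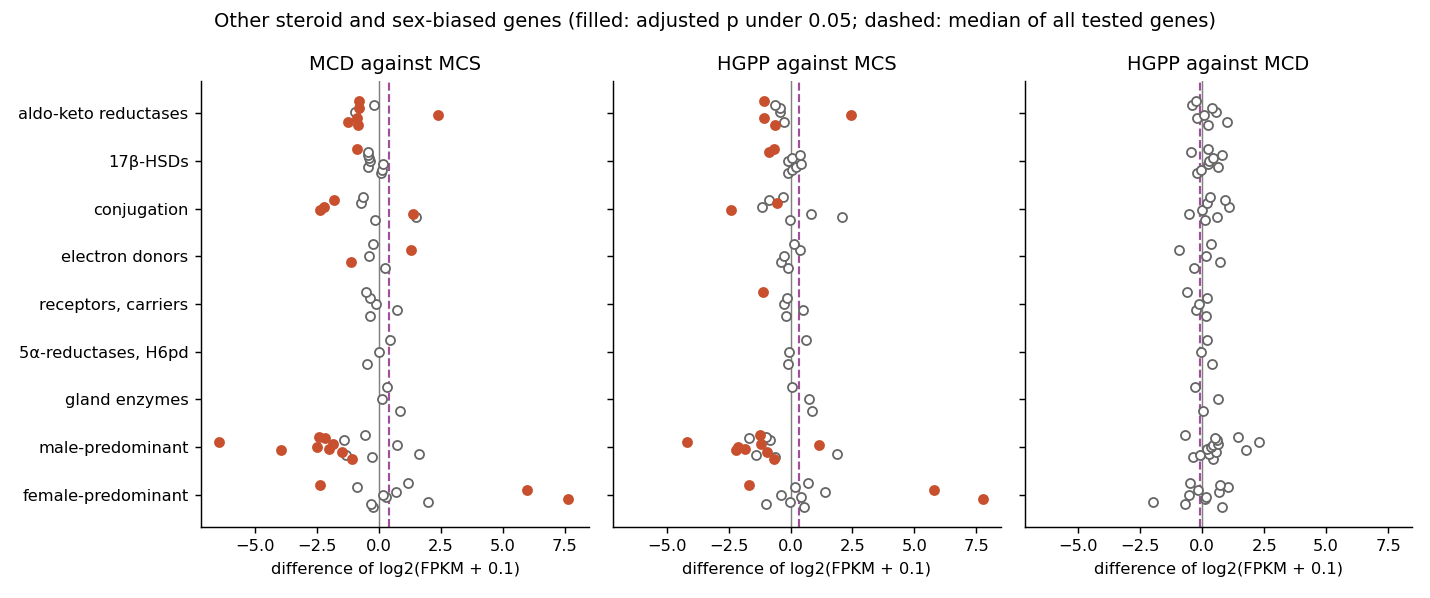
Difference between groups in log2(FPKM + 0.1) (horizontal axes) for the 41 other steroid genes and the 26 sex-biased genes, 1 point per gene, by role (vertical axis) and with 1 panel per comparison. Filled points passed limma's adjusted p of 0.05; they are absent from HGPP against MCD, and the dashed line is the median of all tested genes.

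Cell type markers were counted in the same comparisons. Against MCS, 19.6% of all genes were called higher and 2.55% lower in MCD, and 16.4% and 2.48% in HGPP. With median-of-ratios scaling 1231 and 1019 of the 13817 genes were called higher and lower in MCD, and 704 and 672 in HGPP. Of 9 leukocyte markers 7 rose in MCD and 7 in HGPP against MCS (6 and 2 with median-of-ratios scaling), and their summed level was 25.01 to 72.5 FPKM in MCS, 151 to 805 in MCD and 96.0 to 185 in HGPP. None of the 9 was called in HGPP against MCD by limma or voom. At an unadjusted p under 0.05 7 were lower, where 1339 of all genes were. Of 9 hepatocyte markers 2 fell in each comparison with MCS (3 and 1 with median-of-ratios scaling), Cps1 and Fgb in MCD and Fgb and Ttr in HGPP, and the call of Ttr was lost whichever library was left out. They had sums of 64913 to 81087 FPKM in MCS, 31684 to 65328 in MCD and 49073 to 58378 in HGPP, and none of them was at 0 in any group. Of 7 stellate cell markers 4 rose in MCD and 5 in HGPP (2 and 0 with median-of-ratios scaling), with sums of 37.5 to 50.6 FPKM in MCS, 63.7 to 141 in MCD and 66.0 to 117 in HGPP. Of 7 periportal hepatocyte genes 2 fell in MCD and 3 in HGPP, with sums of 1281 to 1378 FPKM in MCS, 530.5 to 1616 in MCD and 785 to 1228 in HGPP. Of 8 pericentral genes none was called by limma in either, with 1 lower by voom in each. At an unadjusted p under 0.05 2 were higher and 1 lower in MCD, where 4617 and 652 of all genes were. In HGPP 1 was lower at that threshold, where 629 of all genes were. Of 5 cholangiocyte markers 2 rose in MCD and 1 in HGPP (0 in both with median-of-ratios scaling). Of 5 sinusoidal endothelial markers 1 rose in HGPP and 0 in MCD by limma or voom. Of 13 genes of mitochondrial DNA 3 rose in MCD (0 with median-of-ratios scaling) and none in HGPP by limma or voom. In HGPP 1 was higher at an unadjusted p under 0.05, where 4339 of all genes were. The sum of the 13 was 36800 to 62185 FPKM in MCS, 52687 to 143202 in MCD and 46951 to 55576 in HGPP. The part of these cells and genes in the values of the steroid enzymes was not tested.

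Likeness over the 9 livers was taken as Pearson r of log2(FPKM + 0.1) over 10005 genes with a mean of at least 1 FPKM, and is a description without a test, since the livers share 3 groups. The 5 genes most like Hsd3b5 were Car3 (r = 0.95), a carbonic anhydrase, Pcp4l1 (0.95), Cyp2c54 (0.95), a cytochrome P450, Nat8f1 (0.95) and Mup1 (0.95). Car3 was at 820 to 1172 FPKM in MCS, 127 to 423 in MCD and 185 to 349.7 in HGPP, and like Hsd3b5 it was lowest in MCD replicate 2. The 5 most like Hsd3b2 were Mov10 (r = 0.92), an RNA helicase, Gm37419 (0.91), Fgfrl1 (0.91), a receptor of the fibroblast growth factor family, P2ry1 (0.91), a nucleotide receptor, and Adam11 (0.90). Mov10 was at 4.70 to 4.99 FPKM in MCS, 6.35 to 6.77 in MCD and 3.15 to 3.68 in HGPP, and the 3 groups did not overlap. Within the set, Hsd3b5 and Hsd11b1 were most alike (r = 0.93), and Hsd3b2 and Cyp17a1 least (r = -0.66).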

How the data were processed

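Liver RNA of 9 mice was sequenced, and the authors deposited FPKM values for 21936 genes, which come from trimmed and aligned reads counted per gene and scaled by length and depth. Different tools are named for this: featureCounts 2.0.0, STAR 2.7.7a and fastp 0.20.1 in the submitters' processing notes, but HTSeq and Cutadapt in the methods. Not given in the sources used here are the genome build and the treatment of strand and of reads with several matches. With GENCODE vM21 gene lengths, whole reads (within 0.02) were recovered for 98.13% of the 115796 values that stand for 1000 reads or fewer, which gave the depth and the read numbers. Depth was 11492657 to 18902845 fragments per library, and limits from read numbers cover counting error only.

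The filter kept 13817 genes, those that reached 0.1 FPKM in 3 libraries. Pairs of groups were compared with limma 3.58.1 under R 4.3.3, by lmFit and trended eBayes on log2(FPKM + 0.1). Tests were two-sided, and p-values were adjusted by Benjamini-Hochberg over those 13817 genes. The alternatives were other pseudocounts (1 and 0.01), no filter or a minimum of 1 FPKM, median-of-ratios or quantile scaling, 1 fit over all libraries, a block for the replicate number, no trend, voom on the recovered reads, and each library left out. The code was tested on simulated data. The members, gene lists and tests were chosen with earlier results of these data known. Of each list the 4 genes with the highest mean level were to be named, and others are named as chosen after their values were seen. Sequences are from RefSeq (GRCm38.p6) and GENCODE vM21. Python 3.11.15 with numpy 2.4.6, pandas 2.3.3 and matplotlib 3.10.9 served for tables and plots. Markers that did not match a symbol were left out. RNA quality numbers, qPCR, histology and serum values are not analysed here.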

Additional observations from a re-analysis of the deposited data

How the results depend on the processing

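Over the 8 genes, 3 comparisons and all alternatives, 384 differences were computed, of which 14 moved by more than 1 SD between replicates. No difference past the adjusted threshold turned its sign. The differences of Hsd3b5, Hsd17b6 and Srd5a1 in HGPP against MCD and of Cyp17a1 in HGPP against MCS, which were not past it, did so under some alternatives. Without the filter on low values, calls fell to 1 member in MCD against MCS, 3 in HGPP against MCS and 0 in HGPP against MCD, to 4 and 4 other steroid genes and to 6 and 4 sex-biased genes against MCS. Quantile scaling left 0 members in HGPP against MCD and 8 other steroid genes in MCD against MCS. Without a trend in the spread 0 members were called in HGPP against MCD, and 8 and 4 other steroid genes in MCD and HGPP against MCS. One fit over all libraries gave 3 members and 7 sex-biased genes in HGPP against MCS. With each library left out, members called ran from 2 to 4 in MCD against MCS, from 3 to 5 in HGPP against MCS and from 0 to 2 in HGPP against MCD. Other steroid genes numbered 3 to 12 in MCD against MCS and 3 to 7 in HGPP against MCS, and sex-biased genes 8 to 14 and 7 to 12, with 0 to 1 in HGPP against MCD. The causes were not tested.

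Between same-numbered libraries of different groups, correlations of deviations ran from -0.34 to 0.30. They cannot decide whether the numbers pair the mice, since deviations within so small a group depend on each other. With the replicate number as a block 6 other steroid genes were called in MCD against MCS, 2 members were called in MCD against MCS, 4 in HGPP against MCS and 1 in HGPP against MCD, and the count of calls for the other results stayed within 1.5 times of the unblocked one. Scaling changed the split of all calls: in MCD against MCS 2707 genes were higher and 353 lower as deposited and 1231 and 1019 with median-of-ratios scaling, and in HGPP against MCS 2260 and 342 against 704 and 672. Depth limits Hsd3b5 on the deficient diet, where values rest on at most 20 reads.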
